A study of Mus musculus with 6 samples.

Results

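The post-squalene enzymes of cholesterol synthesis turn squalene into cholesterol, and 9 of their genes were followed here in the mouse adrenal gland: Sqle, Lss, Cyp51, Msmo1, Nsdhl, Hsd17b7, Ebp, Sc5d and Dhcr7. They were chosen by name as a pathway, and every probe set that the platform annotation gives to one of them by Entrez identifier was taken. They are 9 of the 8251 genes that the annotation names on the array. They gave 12 of its 12422 probe sets that are not controls, 3 for Nsdhl, 2 for Sc5d and 1 for each of the other genes. The annotation assigned none of the 12 to another gene as well. The annotation already wrote Msmo1 under its present name.

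The arrays compared whole adrenal glands of chromogranin A (Chga) knockout mice with those of wild-type mice. Chromogranin A is a protein of the hormone granules of the adrenal medulla. There were 3 arrays per genotype, all of male mice aged 12 weeks, and the series gives 3 mice per genotype, so each array was read as 1 mouse. The strain label cites an earlier publication for both genotypes. The genetic background, the deleted part of Chga and whether the animals were littermates are not given in the labels. No treatment is named.

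Signals below are always listed in the order of arrays 1, 2 and 3 of a genotype, the knockout arrays first.

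Adrenal cortical cells need cholesterol as the starting material of every steroid hormone, and they obtain it both from lipoproteins and by their own synthesis. After the mevalonate pathway has built squalene, the enzymes studied here add an oxygen, close the rings, strip the methyl groups and shift and reduce the double bonds. When membrane sterol runs low, the SREBP-2 transcription factor is released from the endoplasmic reticulum and raises transcription of most of these genes together, often with NF-Y and Sp1 bound beside it.

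Promoters are shown for the 4 enzymes that take the methyl groups off lanosterol, as one set of demethylating enzymes whose transcripts all fell. Transcripts of the other enzymes were low on the knockout arrays too. Cyp51 removes the methyl group at carbon 14, and Msmo1, Nsdhl and Hsd17b7 act in turn on those at carbon 4. The sequences are the 200 bases before the annotated start of each gene, read 5′ to 3′ on the gene's strand from RefSeq (GRCm38.p6). They lie at chr5:4104698-4104897 (minus strand) for Cyp51, chr8:64733579-64733778 (minus) for Msmo1, chrX:72918321-72918520 (plus) for Nsdhl and chr1:169969206-169969405 (minus) for Hsd17b7. Capitals mark CCAAT, the NF-Y box, and GGGCGG, the Sp1 box, on either strand, so ATTGG and CCGCCC are the same boxes read on the other strand.
Cyp51: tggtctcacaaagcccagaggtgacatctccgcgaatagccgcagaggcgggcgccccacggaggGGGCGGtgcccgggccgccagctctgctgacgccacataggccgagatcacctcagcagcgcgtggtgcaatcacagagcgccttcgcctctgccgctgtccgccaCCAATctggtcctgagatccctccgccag
Msmo1: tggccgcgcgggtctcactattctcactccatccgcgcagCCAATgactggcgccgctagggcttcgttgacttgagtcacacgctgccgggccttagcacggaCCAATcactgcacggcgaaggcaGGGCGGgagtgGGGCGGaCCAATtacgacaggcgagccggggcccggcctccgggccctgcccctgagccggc
Nsdhl: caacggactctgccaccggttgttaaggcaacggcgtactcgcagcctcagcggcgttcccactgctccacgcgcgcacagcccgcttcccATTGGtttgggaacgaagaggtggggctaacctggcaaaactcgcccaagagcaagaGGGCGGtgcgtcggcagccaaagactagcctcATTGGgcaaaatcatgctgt
Hsd17b7: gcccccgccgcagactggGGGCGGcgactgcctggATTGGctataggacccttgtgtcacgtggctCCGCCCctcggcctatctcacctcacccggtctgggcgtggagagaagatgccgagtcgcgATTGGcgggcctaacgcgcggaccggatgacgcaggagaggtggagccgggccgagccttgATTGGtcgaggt

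Both boxes stood in every one of these promoters. Within the printed 200 bases, Msmo1 and Hsd17b7 held 3 CCAAT and 2 GGGCGG boxes each, Nsdhl held 2 and 1, and Cyp51 held 1 of each. Over the full 250 bases before each start, 8 of the 9 genes had an entry in the RefSeq promoter table, which did not list Sqle. All 8 held CCAAT and all 8 held GGGCGG in at least 1 promoter. Counted by promoter, CCAAT was in 8 of 10, since 3 start sites are listed for Dhcr7, and GGGCGG was in 9 of 10. Among the 5908 promoters of genes tested on this array, 34.7% held CCAAT, 57.4% held GGGCGG and 20.0% held both, and among all 32851 promoters of the table the shares were 33.8%, 32.7% and 11.0%. The third motif searched, TCACNCCAC, a core of the sterol regulatory element, had no match in the 10 promoters, and 1.15% of the promoters of tested genes held it. ATTGG and GGGCGG can share letters, but no matches overlapped in the promoters of these genes, and a match is a description of sequence, not a measured binding site.

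Chga, the targeted gene, marked both genotypes as labelled. Its brighter probe set read 1188, 858 and 951 in the knockout and 46719, 30213 and 35306 in the wild-type glands. Each array had 12488 probe sets, a median signal between 953 and 1092 and the same trimmed mean signal, 2499.6. Skeletal muscle transcripts and a higher ratio of 3′ to 5′ signal set knockout arrays 2 and 3 apart from the other 4 arrays, and the changes with knockout array 1 alone are given beside each gene that passed. Markers of both parts of the gland were present, as the tissue label says. Cortical genes of steroid synthesis (6 of 7 listed) summed to between 380631 and 449213 on the knockout and between 361969 and 442802 on the wild-type arrays. Medullary genes (4 of 6 listed) summed to between 159100 and 174363 on the knockout and between 133736 and 145833 on the wild-type arrays. Of these 4 genes, 3 had a higher value in the knockout, and Pnmt had a lower one (log2 change -0.23). Chgb alone read 93585, 120199 and 98209 on the knockout and 69305, 77123 and 76133 on the wild-type arrays.

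All 9 enzymes had lower signals in the knockout adrenal. On each of the 12 probe sets every knockout array lay under every wild-type array, which was so for 8.83% of the 7453 probe sets tested. 6 of the 9 genes fell at an adjusted p under 0.05 in limma, namely Sqle, Cyp51, Msmo1, Nsdhl, Hsd17b7 and Dhcr7, where 0.282% of all probe sets tested fell; Lss, Ebp and Sc5d did not pass. At an unadjusted p under 0.05 all 9 were lower, against 6.25% of probe sets. With 1 probe set for each gene, the brightest, the median log2 change was -1.57, a 2.97-fold lower signal, and the median over all probe sets tested was -0.01. All 12 probe sets passed the filter on low signals, which uses the mean of all 6 arrays. The knockout mean of Hsd17b7, 470, lay under the filter signal of 583. Without the filter 4 of the 9 genes passed in limma, and Hsd17b7 and Dhcr7 did not (limma adjusted p = 0.0694 and 0.0792). In a whole gland, fewer cells of a type and less RNA per cell cannot be told apart.

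The number of these calls depended on single arrays and on the model. The direction could not reverse when arrays were left out, since every knockout array lay under every wild-type array. Without knockout array 2 or wild-type array 3, 3 of the 9 genes passed. Without knockout array 3 or wild-type array 2, 2 passed, and without an intensity trend in limma's variance 2 passed. Each time all 9 had an unadjusted p under 0.05, as did between 519 and 794 of all 7453 probe sets, in either direction. With the Gapdh 3′ to 5′ ratio as a covariate 0 passed in limma, and the median change was -1.54. All 9 genes had an unadjusted p under 0.05 in that fit, as did 370 of 7453 probe sets in either direction. With knockout array 1 alone the median change was -1.57.

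**Figure D1:**
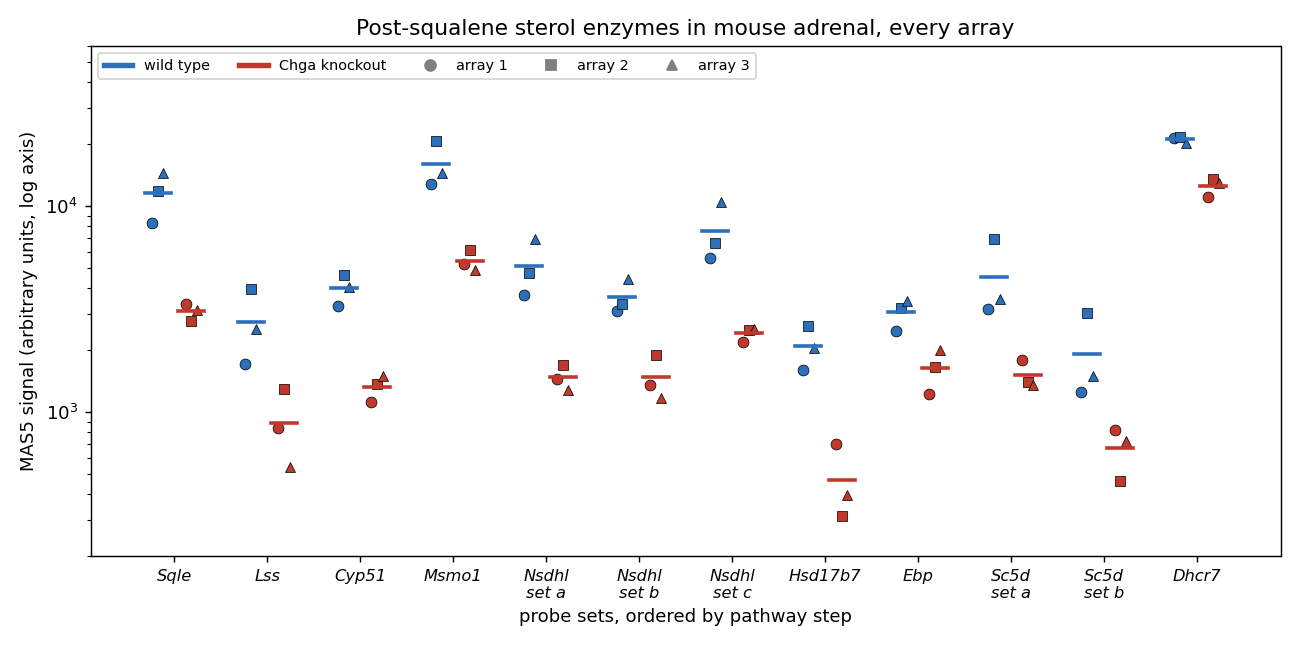
MAS5 signal (arbitrary units, log axis) of the 12 probe sets of the 9 enzymes, in pathway order, on each of the 3 wild-type (blue) and 3 knockout (red) arrays; horizontal lines are group means and symbols give the array number. Set c is the brightest and set b the dimmest for Nsdhl, and set a is the brighter for Sc5d. For each probe set the knockout points lie under the wild-type points; the narrowest gap is that of Ebp, where the lowest wild-type signal was 1.24 times the highest knockout signal, and the widest that of Sqle, at 2.47 times.

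Sqle encodes squalene epoxidase, which adds the first oxygen to squalene and is a rate-limiting step of the pathway. The knockout arrays gave 3355, 2760 and 3135 and the wild-type arrays 8287, 11907 and 14412. The knockout arrays lay close together, and the wild-type arrays spread more widely and did not reach down to them. The fall was 3.65-fold (log2 change -1.87 ± 0.21, SE, n = 3 per group, limma adjusted p = 0.0043). This was the only gene of the 9 that passed in all 6 fits that left out 1 array, with adjusted p between 0.00152 and 0.0391. With knockout array 1 alone, the Sqle change was -1.74 (limma adjusted p = 0.177).

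Lss encodes lanosterol synthase, which folds the oxidized squalene into the first sterol. Its signal was 833, 1295 and 542 on the knockout and 1718, 3960 and 2527 on the wild-type arrays. The groups did not overlap, but both were wide: the highest array was 2.39 times the lowest among the knockout and 2.31 times among the wild-type arrays. The log2 change of -1.61 ± 0.37 (SE, n = 3 per group) was about that of Cyp51, and it did not pass (limma adjusted p = 0.167). Its 95% interval ran from a 1.70-fold to a 5.47-fold lower signal.

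Cyp51 encodes lanosterol 14-alpha-demethylase, the cytochrome P450 of the pathway. It read 1122, 1368 and 1496 on the knockout and 3288, 4643 and 4054 on the wild-type arrays. Both groups were compact, and the lowest wild-type array was 2.20 times the highest knockout array. The log2 change was -1.57 ± 0.20 (SE, n = 3 per group, limma adjusted p = 0.00948), and the call was lost without wild-type array 2 or 3 (adjusted p = 0.0563 and 0.0660). Knockout array 1 alone gave -1.80 for Cyp51 (limma adjusted p = 0.109).

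The 3 enzymes that remove the methyl groups at carbon 4 fell in the knockout adrenal. Msmo1, the methyl sterol monooxygenase that oxidizes them, had 5246, 6150 and 4922 on the knockout and 12821, 20637 and 14477 on the wild-type arrays. Wild-type array 2 was the high one, and the knockout arrays differed by no more than 1.25-fold. The log2 change was -1.53 ± 0.19 (SE, n = 3 per group, limma adjusted p = 0.00948), a call lost without knockout array 3 (adjusted p = 0.0826). For Msmo1 the change was -1.57 with knockout array 1 alone (limma adjusted p = 0.177).

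Nsdhl, the sterol dehydrogenase that takes off the carboxyl group formed by Msmo1, had 3 probe sets. Whether they share probes was not examined. Its brightest read 2188, 2517 and 2533 on the knockout and 5619, 6640 and 10456 on the wild-type arrays. A second read 1448, 1702 and 1279 against 3706, 4745 and 6931, and the dimmest 1350, 1904 and 1166 against 3081, 3342 and 4453. On all 3, wild-type array 3 was highest and wild-type array 1 lowest. Their log2 changes were -1.60, -1.75 and -1.30 (limma adjusted p = 0.0196, 0.0175 and 0.0595), so the first and the second passed and the dimmest did not.
The call on the brightest was lost without knockout array 2 or 3 or wild-type array 2, with adjusted p between 0.0606 and 0.112, and with knockout array 1 alone it gave -1.73 (limma adjusted p = 0.247).

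Hsd17b7, the keto-reductase that closes each round of this demethylation, had the lowest share left of the 9. It read 701, 311 and 397 on the knockout and 1594, 2627 and 2041 on the wild-type arrays. The knockout mean was 22.5% of the wild-type mean. Knockout arrays 2 and 3 lay under 583, the signal at the filter on the mean of a probe set, so these values are dim. The log2 change was -2.17 ± 0.34 (SE, n = 3 per group, limma adjusted p = 0.0329), the eighth lowest of all probe sets tested. The call was lost without knockout array 2 or 3 or wild-type array 2 or 3 (adjusted p between 0.102 and 0.164), and with knockout array 1 alone the log2 change was -1.52 (adjusted p = 0.365).

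Ebp and Dhcr7, of the last steps, had the smallest changes. Ebp encodes the sterol isomerase that moves the double bond from carbon 8 to carbon 7. It read 1225, 1664 and 2007 on the knockout and 2484, 3218 and 3452 on the wild-type arrays. The log2 change of -0.91 ± 0.23 (SE, n = 3 per group) did not pass (limma adjusted p = 0.193), with a 95% interval from a 1.32-fold to a 2.68-fold lower signal, and Ebp passed under none of the 16 alternatives.

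Sc5d encodes the desaturase that puts in the double bond at carbon 5. Its brighter probe set read 1788, 1394 and 1353 on the knockout and 3177, 6947 and 3533 on the wild-type arrays, where array 2 stood well above the other two. The dimmer one read 815, 461 and 722 against 1246, 3015 and 1502, with the same wild-type order. Log2 changes were -1.50 ± 0.29 and -1.44 ± 0.36 (SE, n = 3 per group), and neither passed (limma adjusted p = 0.0785 and 0.206). The 95% intervals ran from 1.80-fold to 4.45-fold and from 1.53-fold to 4.79-fold lower.

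Dhcr7, the reductase of the final step from 7-dehydrocholesterol to cholesterol, had the smallest change and the most even wild-type arrays. It read 11056, 13614 and 12939 on the knockout and 21510, 21615 and 20200 on the wild-type arrays, and the wild-type arrays differed by 1.07-fold. The knockout mean was 59.4% of the wild-type mean. The fall of 1.69-fold (log2 change -0.76 ± 0.13, SE, n = 3 per group) passed narrowly (limma adjusted p = 0.0486) and held in 1 of the 6 fits with an array removed. With knockout array 1 alone Dhcr7 had a change of -0.93 (limma adjusted p = 0.177).

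**Figure D2:**
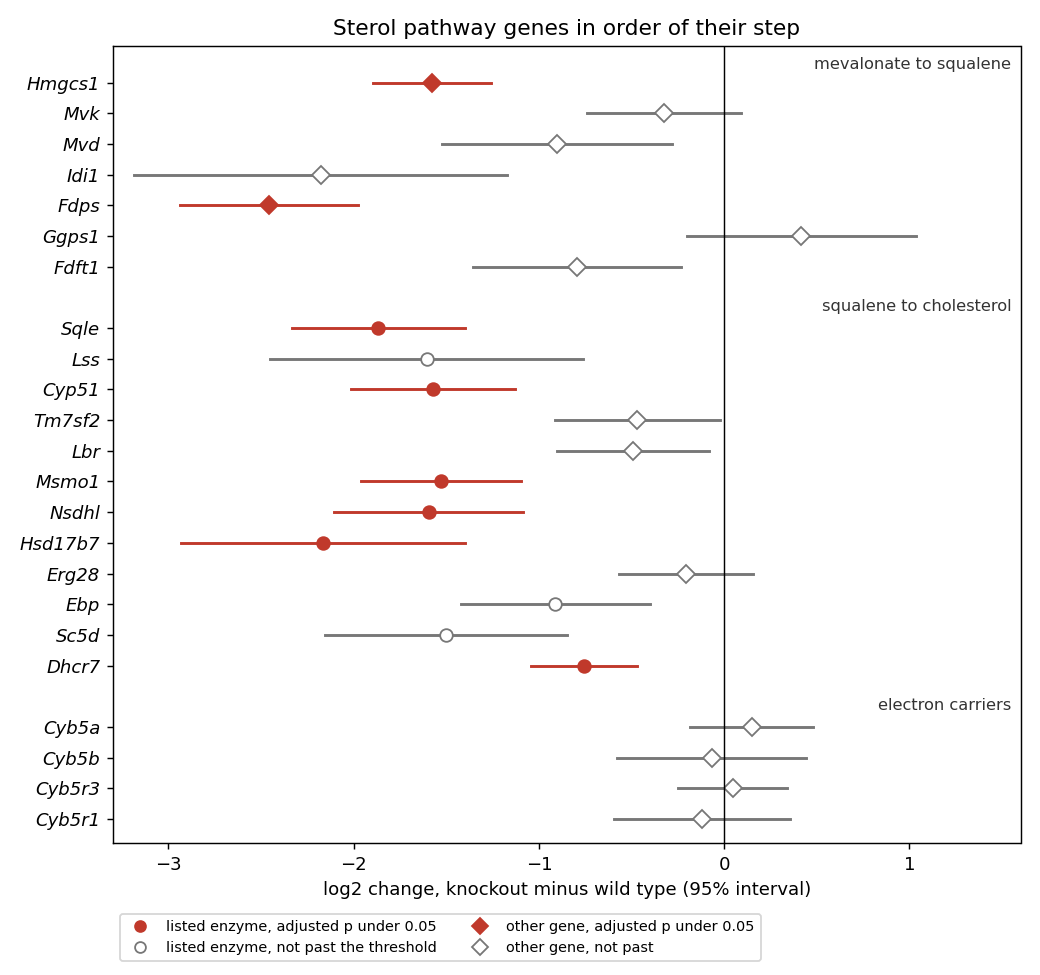
Log2 change of signal, knockout minus wild type (horizontal axis, with 95% interval), of sterol pathway genes from top to bottom in pathway order and of 4 genes of electron carriers; circles are the 9 enzymes, diamonds other genes, red filled symbols passed an adjusted p of 0.05 and open grey ones did not. The 9 enzymes lie between -2.17 and -0.76, while Tm7sf2, Lbr and Erg28, drawn among them, lie at -0.47, -0.49 and -0.21.

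Genes that work between these steps, and that were listed beside the 9, had smaller values. Tm7sf2 and Lbr encode the 2 sterol reductases that act at carbon 14 directly after Cyp51, and Erg28 encodes a scaffold of the carbon 4 demethylation enzymes. Tm7sf2 read 1917, 2155 and 2426 on the knockout and 2424, 3693 and 2980 on the wild-type arrays, where the groups met at the edge (log2 change -0.47, limma adjusted p = 0.423). Lbr, which also anchors chromatin to the nuclear lamina, read 2338, 1966 and 2420 against 2757, 2983 and 3773, without overlap (-0.49, adjusted p = 0.390). 0 of these 3 genes passed in limma, and 2, Tm7sf2 and Lbr, were lower at an unadjusted p under 0.05, against 6.25% of all probe sets tested. Whether their changes differ from those of the 9 enzymes was not tested.

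On their brightest probe sets, 4 genes of electron carriers that serve the oxygenases of the pathway stayed near the median of all probe sets. Por was listed with them but was not on the array. Cytochrome b5 passes electrons to Msmo1 and Sc5d, and its reductase reloads it. Cyb5a, Cyb5b, Cyb5r3 and Cyb5r1 had log2 changes of 0.15, -0.07, 0.05 and -0.12 on their brightest probe sets, 0 of 4 passed in limma, and 0 had an unadjusted p under 0.05. Cyb5a read 13105, 13838 and 17131 on the knockout and 12579, 12301 and 14746 on the wild-type arrays, and the groups overlapped. A dimmer probe set of Cyb5b had a log2 change of -0.94 (limma unadjusted p = 0.00201, adjusted p = 0.168), with every knockout array under every wild-type array.

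Upstream of squalene, 2 of 7 measured genes fell, against 0.282% of all probe sets tested, none rose, and the median log2 change was -0.90. With the Gapdh 3′ to 5′ ratio as a covariate 0 of the 7 passed in limma. In that fit 4 had an unadjusted p under 0.05, against 370 of 7453 probe sets in either direction. Fdps, which makes farnesyl diphosphate, read 14669, 14538 and 9506 on the knockout and 56499, 88589 and 67392 in wild type (log2 change -2.46, limma adjusted p = 0.000861). Hmgcs1, the synthase that opens the mevalonate pathway, read 6970, 6528 and 7072 against 18024, 23897 and 19900 (-1.58, adjusted p = 0.000991). With knockout array 1 alone, Fdps had a change of -2.25 (limma adjusted p = 0.0301) and Hmgcs1 one of -1.55 (0.0787), and with the covariate both had an adjusted p of 0.0530. The groups were apart for both, as they were for 6 of the 7 genes in the lower direction, against 8.83% of all probe sets tested. Idi1, the isomerase of the 5-carbon units, was lower on every knockout array (2523, 5558 and 4029) than on any wild-type array (8069, 26524 and 24657), and did not pass (adjusted p = 0.113). Fdft1, which makes squalene itself and so hands over to Sqle, had a log2 change of -0.79 (adjusted p = 0.313). Ggps1, which draws farnesyl diphosphate away towards protein prenylation, had the only higher value, 0.42 (adjusted p = 0.600).

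Genes that sense sterol or move cholesterol into and out of the cell held no call. Of 3 tested genes of the SREBP system and its partners, 0 passed in limma and 0 had an unadjusted p under 0.05. Srebf1, which encodes the SREBP-1 factors, read 11130, 17962 and 11548 on the knockout and 9466, 10230 and 12039 in wild type (log2 change 0.33, adjusted p = 0.560). Nr1h3, the gene of the oxysterol receptor LXR-alpha, had a change of 0.11 (adjusted p = 0.893).
Of 8 genes of uptake, storage and efflux 0 passed in limma, and 1 was lower and 1 higher at an unadjusted p under 0.05, against 843 of 7453 probe sets in either direction. These were Abca1, which exports cholesterol (-0.46, adjusted p = 0.311), and Npc1, which lets cholesterol out of lysosomes (0.48, adjusted p = 0.389). Scarb1, the receptor through which the adrenal takes up cholesterol esters from high-density lipoprotein, read 83549, 86345 and 85702 on the knockout and 80723, 91980 and 75520 on the wild-type arrays, with overlap (log2 change 0.05, adjusted p = 0.910).

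Within each genotype the 9 enzymes did not keep one order of arrays. Among the wild-type arrays, array 1 was lowest for 8 of the 9 genes, all but Dhcr7. Array 2 was highest for Lss, Cyp51, Msmo1, Hsd17b7, Sc5d and Dhcr7, and array 3 for Sqle, Nsdhl and Ebp. Each knockout array was highest for 3 of the 9. As a share of the wild-type mean, the median over the 9 genes was 76.4%, 116% and 97.8% in the wild-type series and 32.8%, 34.2% and 30.8% in the knockout series. The knockout arrays thus gave nearly the same median. The spread over genes was wider on 2 of them: from 28.1% (Cyp51) to 52.4% (Dhcr7) on knockout array 1, from 14.9% (Hsd17b7) to 64.5% (Dhcr7) on array 2 and from 19.0% (Hsd17b7) to 65.8% (Ebp) on array 3.

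Signals of other tissues and of RNA integrity differed between the same arrays. The 9 skeletal muscle genes summed to 3525, 64583 and 30270 in the knockout and to between 3483 and 3775 on the wild-type arrays. The Gapdh 3′ to 5′ ratio was 0.831, 1.30 and 1.29 on the knockout arrays and between 0.762 and 0.806 on the wild-type arrays. The actin 3′ to 5′ ratio was 1.32, 1.69 and 1.72 on the knockout arrays and between 1.14 and 1.22 on the wild-type arrays, so knockout array 1 lay above every wild-type array in both ratios and below the other knockout arrays. Only the summed muscle signal of knockout array 1 was within the wild-type range. Of the 9 muscle genes, 4 were higher on every knockout array than on any wild-type array. One was Acta1, with 565 for knockout array 1 and at most 180 in wild type. Tnnc2 and Myh4 were lower on knockout array 1 than on any wild-type array. The enzymes of knockout array 1 had a median of 32.8% of the wild-type mean, beside 34.2% and 30.8% on the other knockout arrays. The part of muscle RNA in these values was not tested.

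Fat around the gland was present on both sides of the comparison. The 6 adipocyte genes measured, of 8 listed, summed to between 32626 and 58655 on the knockout and between 27705 and 51106 on the wild-type arrays. Of these 6 genes, 4 had a higher value in the knockout. Ucp1, the defining gene of brown fat, went the other way (log2 change -0.99, limma adjusted p = 0.675). It read 874, 8661 and 3496 on the knockout and 2344, 10047 and 8955 on the wild-type arrays. The relation of Ucp1 to the signals of the 9 enzymes over the arrays was not tested. The 8 macrophage genes measured summed to between 16638 and 31801 on the knockout and between 14480 and 17866 on the wild-type arrays. Liver genes (5 of 6 measured) summed to between 16510 and 35377 and between 12807 and 34929, and endothelial genes (6 of 6) to between 24277 and 28843 and between 18710 and 22563. Kidney genes (5 of 5) summed to at most 2129 on any array and 3 erythroid genes, of 5 listed, to between 74416 and 109476 on the knockout and between 83688 and 171984 on the wild-type arrays. The part of these signals in the values of the 9 enzymes was not tested.

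**Figure D3:**
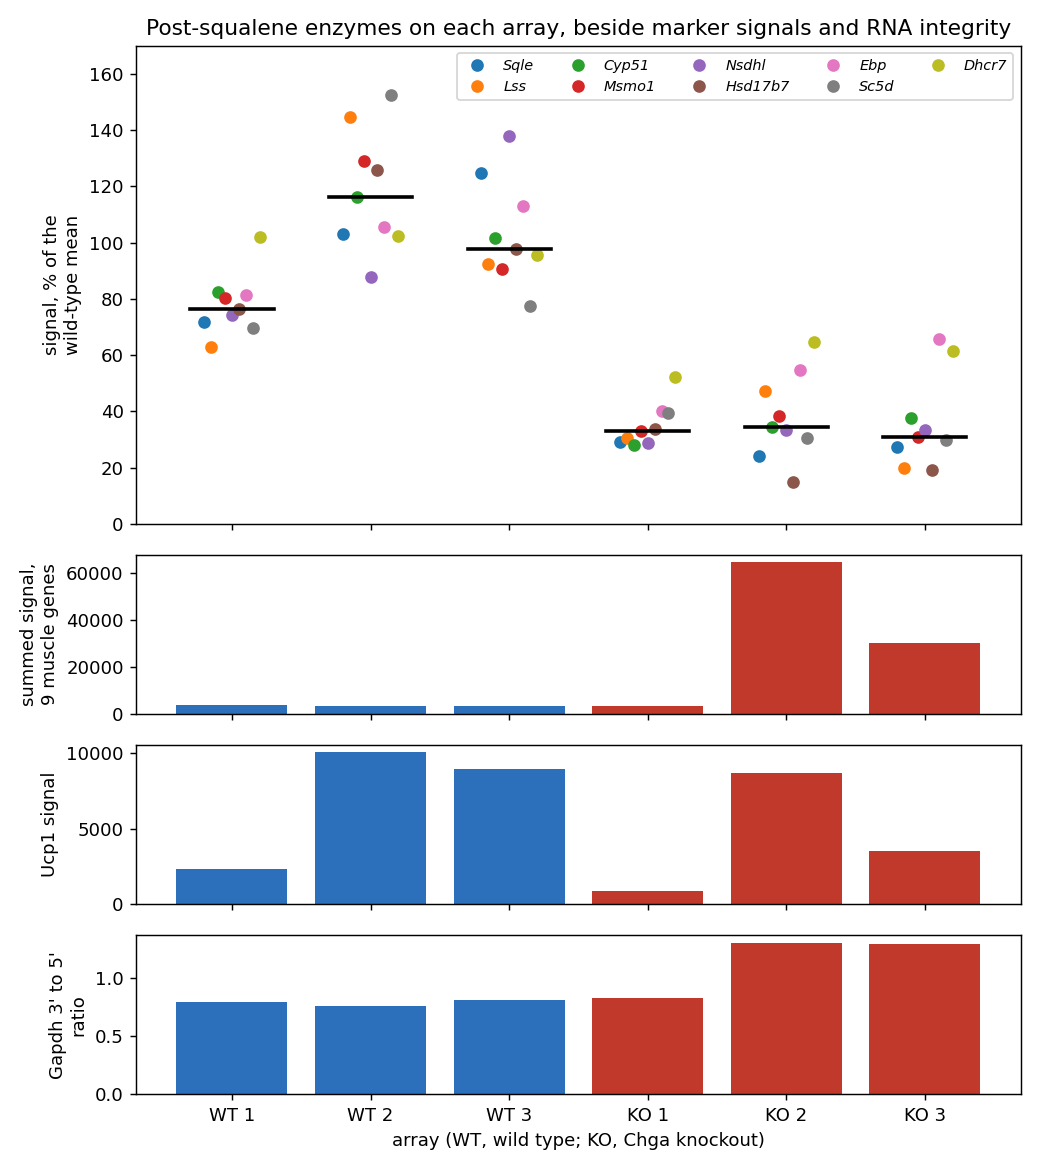
From top to bottom for each of the 6 arrays: signal of the 9 enzymes as a percentage of the gene's wild-type mean (coloured points, with the median over genes as a black line), summed signal of 9 skeletal muscle genes, signal of Ucp1, and the Gapdh 3′ to 5′ signal ratio. The medians of the 3 knockout arrays lie between 30.8% and 34.2%. Muscle signal and the ratio are highest on knockout arrays 2 and 3.

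**Figure D4:**
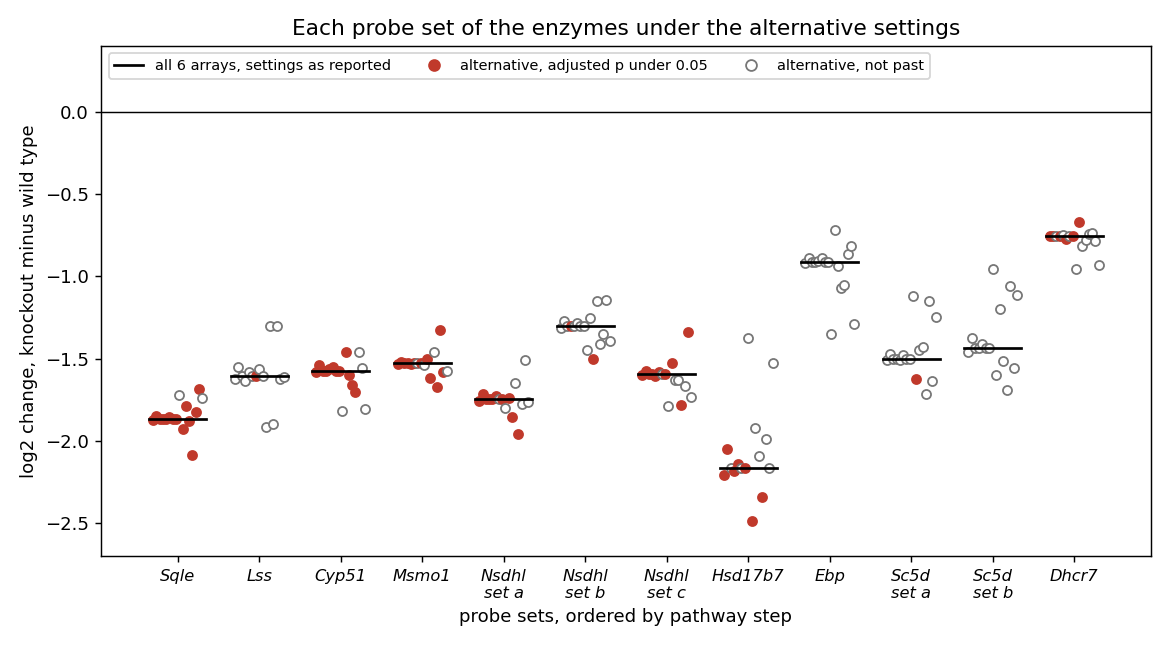
Log2 change, knockout minus wild type, of the 12 probe sets under each alternative setting (points, filled red where the adjusted p was under 0.05) beside the reported value (black line). The points of every probe set lie below 0, and filled points are most frequent for Sqle, with 14 of 16, and absent for Ebp and for the dimmer Sc5d probe set.

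The profile of the 9 enzymes over the arrays was summarised as the mean of their standardized log2 signals, and genes outside all lists were ranked by Pearson correlation with it over the 6 arrays. The closest 5 were Mrpl50, a mitochondrial ribosomal protein gene, Rnf138, a ubiquitin ligase gene, Cdt1, which licenses replication origins, Hibch, an enzyme of valine breakdown, and Tipin, of the replication fork, with r between 0.980 and 0.993. Since the 2 genotypes lie apart on this profile, the correlation includes the genotype difference. Mrpl50 read 1434, 1437 and 1490 on the knockout and 2064, 2332 and 2367 on the wild-type arrays, with a log2 change of -0.62 (limma adjusted p = 0.235), and the other 4 had changes between -0.71 and -0.36. None of the 5 passed in limma. Of them 4 had an unadjusted p under 0.05, against 843 of 7453 probe sets in either direction, but the choice by this profile favours such genes.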

How the data were processed

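Each probe set has 1 deposited value, a linear intensity. MAS5 is named for it in the submitters' processing notes, and its version, scaling target and detection calls are not stated there. RNA was extracted and labelled as biotinylated cRNA, per the labels' protocols, with 1 array for each of 6 samples. Since the trimmed mean (2% removed at each end) was 2499.6 on every array, no further scaling was applied. Of 12422 probe sets that are not controls, 10833 had 1 gene symbol, 396 had several and 1193 were not listed. Symbols were updated by Entrez identifier with RefSeq (GRCm38.p6), used for names and promoters only; the files name no build.

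Values were taken as log2(signal + 16). Fold changes are on that scale and come out too small for dim genes. The 7453 probe sets at or above the 40th percentile of mean log2 signal (a signal of about 583) entered a limma fit (version 3.58.1, R 4.3.3; lmFit, eBayes with an intensity trend) of knockout against wild type, with Benjamini-Hochberg adjustment over all of them and a threshold of 0.05. The script was tested on simulated data. A gene is represented by its brightest tested probe set in counts and medians. P-values and SE rest on the spread between 3 arrays per group, which limma moderates towards an intensity trend over all probe sets tested. The number of arrays limits precision, since an array gives no counting depth.

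The enzymes, gene lists, motifs and alternatives were chosen with earlier results of these data known. The genes named were all probe sets of the 9 enzymes, Chga, of each other pathway list every gene past the threshold and the 2 with the smallest unadjusted p, and the 5 genes with the most similar profile. Other genes named (Idi1, Fdft1, Ggps1, Erg28, Scarb1, Ucp1, Chgb, Pnmt, Cyb5b and Cyb5r3) were chosen after their values were seen. Insig1 was under the filter on low signals. Mvk, Mvd, Mbtps1, Npc2, Lipa, Lipe, Abcg1 and Apoe were tested and enter the counts and medians of their lists. Other listed genes were not analysed here.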

Additional observations from a re-analysis of the deposited data

How the results depend on the processing

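None of the 12 probe sets changed direction under any of the 16 alternatives, or under the 15 that could be run for Lss, Hsd17b7 and the dimmer Sc5d probe set, which did not pass the filter at the 60th percentile. Leaving out arrays or changing the pseudocount could not reverse a change, since every knockout array lay under every wild-type array. The filter, trend and replicate block settings left the changes themselves as they were. The count of enzymes past the threshold, 6 of 9, lay between 2 and 7 over the 6 fits that left out an array, and was 2 in limma without an intensity trend, 0 with the Gapdh 3′ to 5′ ratio as a covariate and 0 with knockout array 1 alone, a fit that assumes that this lone array varies like the wild-type arrays (9 at an unadjusted p under 0.05 in each of these). Over all probe sets, 33 calls became 17, 12 and 13 under these settings and 15 to 141 when an array was left out. The median log2 change of the enzymes lay between -1.71 and -1.33 when an array was left out. With the replicate block, 57 probe sets and 7 enzymes passed, Lss being added (adjusted p = 0.0438); same-numbered arrays deviated with correlations of 0.26, -0.04 and -0.04, and 2 of 6 arrays correlated best with their own number, so the numbers were not taken as pairs. The causes of these shifts were not tested. Detection calls were not used, so the dim knockout signals of Hsd17b7 have no stated distance from background.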

Other observations

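Probe sets of 1 gene did not always give the same picture in the genes around the pathway. The brightest probe set of Cyb5b, which encodes the cytochrome b5 of the outer mitochondrial membrane, had a log2 change of -0.07, while its dimmer one had a mean of 9454 in wild-type and 4954 in knockout arrays (log2 change -0.94, limma adjusted p = 0.168) and all knockout arrays under all wild-type arrays. For Abca1 the brightest probe set had a change of -0.46 and another one -0.99 (limma adjusted p = 0.311 and 0.325). For Fdps both probe sets fell, with log2 changes of -2.46 and -2.15 (limma adjusted p = 0.000861 and 0.000496).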
